A study of Mus musculus with 4 samples.

Results

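The cells described here were conventional CD4 T cells that carried many transcripts of the Ifitm genes, taken from the spleens of mice with graft-versus-host disease. Of 36140 cells that passed the cell filter, 5432 (15.03%) met the definition. A cell needed 500 genes or more and could have 10% mitochondrial UMIs (unique molecular identifiers, each a count of 1 captured transcript) or less. Antibody counts, after adding 1 to each, had to give CD45.1 over CD45.2 a log2 ratio above 2.2, and Cd4 UMIs had to outnumber Cd8a plus Cd8b1. No UMI of Foxp3, Cxcr5 or Ccr9, fewer than 3 of Il7r and fewer than 3 of Il2 plus Csf2 were allowed. At least 10 UMIs of Ifitm1, Ifitm2 and Ifitm3 together were required. Cells that met this definition are called members. They were compared with the 1502 cells that met every other condition and had no UMI of these 3 genes, called Ifitm-0 cells. Cells between the limits, with 1 to 9 Ifitm UMIs, made up the rest of the 9728 gated CD4 cells.

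BALB/c recipients had received 900 cGy of irradiation and C57BL/6 bone marrow depleted of T cells, whose progeny carry both CD45.1 and CD45.2. With the marrow they were given CD45.2+ Treg cells, sorted as Foxp3-GFP+ CD25hi, from 1 of 4 kinds of donor: CD226-/- TIGIT+/+ (CD226 knockout), CD226+/+ TIGIT-/- (TIGIT knockout), CD226-/- TIGIT-/- (double knockout) or CD226+/+ TIGIT+/+ (wild type). CD45.1+ wild-type conventional CD4 and CD8 T cells followed 2 days later, so the members were genetically wild type in all 4 groups and only the Treg cells beside them differed. Donor T cells positive for H-2Kb and TCRb were sorted on day 8, and each group is 1 library made from a pool of 3, of what the labels do not say. Ages were not given in the sources used here. Values of the 4 libraries are given in the order of the list above, with wild type last.

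IFITM proteins are small membrane proteins that sit in endosomal or plasma membranes and hinder the entry of enveloped viruses. Their genes lie in a cluster and are classed among interferon-stimulated genes, which are switched on when type I, II or III interferon signals through STAT and IRF proteins to response elements in promoters. In mouse T cells, Ifitm genes have also been used as markers of activated and effector states. Conventional CD4 cells are the helper cells that, as alloreactive cells, drive graft-versus-host disease, and Treg cells restrain them partly by competing for IL-2.

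Ifitm1, Ifitm2 and Ifitm3 are protein-coding genes on chromosome 7 of GRCm38, at chr7:140967221-140969825 on the plus strand and at chr7:140954837-140955987 and chr7:141009586-141010770 on the minus strand. The promoter windows of these 3 genes are printed because they define the members. Those of Isg15, an interferon-stimulated gene that was lower in members, and of Cish, an IL-2 target that was higher, are set beside them. Each window runs from 250 bases before to 50 bases after the annotated start in RefSeq (GRCm38.p6). Capitals mark matches to an interferon response element (ISRE-like, 2 copies of GAAA with any 2 bases between them) or to a STAT site (GAS, TTCNNNGAA), both searched on both strands.
Ifitm1: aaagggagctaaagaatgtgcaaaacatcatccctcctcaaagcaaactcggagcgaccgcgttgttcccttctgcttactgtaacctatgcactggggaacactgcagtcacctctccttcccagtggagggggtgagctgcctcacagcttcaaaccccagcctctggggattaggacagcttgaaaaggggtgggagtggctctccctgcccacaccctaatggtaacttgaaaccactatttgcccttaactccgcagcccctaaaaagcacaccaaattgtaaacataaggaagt
Ifitm2: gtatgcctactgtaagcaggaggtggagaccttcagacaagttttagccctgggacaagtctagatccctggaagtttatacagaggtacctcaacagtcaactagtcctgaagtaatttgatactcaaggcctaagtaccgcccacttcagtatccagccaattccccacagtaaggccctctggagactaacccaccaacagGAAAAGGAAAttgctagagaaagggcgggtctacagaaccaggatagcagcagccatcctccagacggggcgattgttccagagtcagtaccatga
Ifitm3: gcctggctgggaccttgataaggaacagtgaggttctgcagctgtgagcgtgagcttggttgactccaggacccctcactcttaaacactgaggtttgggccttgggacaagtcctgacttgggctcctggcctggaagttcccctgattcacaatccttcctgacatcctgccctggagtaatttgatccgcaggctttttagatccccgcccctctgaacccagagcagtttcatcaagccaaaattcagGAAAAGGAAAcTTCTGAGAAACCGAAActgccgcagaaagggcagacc
Isg15: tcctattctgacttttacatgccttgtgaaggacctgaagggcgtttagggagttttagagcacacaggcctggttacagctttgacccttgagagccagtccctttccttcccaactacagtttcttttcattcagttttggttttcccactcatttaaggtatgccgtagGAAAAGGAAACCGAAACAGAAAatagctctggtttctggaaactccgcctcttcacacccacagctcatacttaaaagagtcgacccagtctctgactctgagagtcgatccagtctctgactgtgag
Cish: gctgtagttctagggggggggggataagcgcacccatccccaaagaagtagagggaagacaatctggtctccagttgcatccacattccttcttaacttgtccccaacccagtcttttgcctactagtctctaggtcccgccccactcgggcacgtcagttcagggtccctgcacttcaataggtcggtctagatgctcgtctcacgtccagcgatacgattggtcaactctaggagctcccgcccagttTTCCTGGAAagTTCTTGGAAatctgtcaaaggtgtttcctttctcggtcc

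The Ifitm1 window (chr7:140967826-140968125, plus strand) held no match to either motif. The gene positions above are those of GENCODE vM21, which starts Ifitm1 at 140967221 and Cish at 107296026, upstream of both windows, so another annotated start would give another window for these genes. The Ifitm2 window (chr7:140955912-140956211, minus strand) held 1 ISRE-like match, and the Ifitm3 window (chr7:141010695-141010994, minus strand) held 2, with a GAS match that overlapped the second of them. Isg15 (chr4:156200769-156201068, minus strand) had 3 overlapping ISRE-like matches, and Cish (chr9:107296409-107296708, plus strand) had 2 GAS matches. Over all 32851 promoter windows of this length, 3.4% held an ISRE-like match and 8.3% a GAS match. Among windows of the antiviral list described below, 48.8% (20 of 41 windows, covering 34 of 46 genes) held an ISRE-like match. Matches of letters are descriptions and do not show that a factor binds there.

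The 4 libraries held 82630541 to 86675591 UMIs in the kept cells, with a median of 6972 to 9026.5 UMIs per cell, and any pair of libraries shared 16 to 27 cell barcodes. In cells of Treg origin (log2 ratio below -1, 258 to 356 cells per library), Cd226 stood at 5.09 and 3.56 CPM (UMIs of the gene scaled to 1000000 UMIs of all genes in the summed cells) in the CD226-knockout and double-knockout libraries, against 35.3 and 30.6 CPM in the TIGIT-knockout and wild-type libraries. Their Tigit values, 6.54, 8.82, 7.12 and 8.82 CPM, did not separate the labelled TIGIT knockouts, and where the deletion lies relative to the counted 3' end is not given in the sources used here. In members, Cd226 ranged over 72.9 to 81.1 CPM and Tigit over 1.86 to 3.21 CPM. Lane 3 held the CD226-knockout and wild-type libraries and lane 4 the TIGIT-knockout and double-knockout libraries, so lane and TIGIT status cannot be told apart.

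Members numbered 1295, 1601, 1225 and 1311 in the 4 libraries, or 51.0%, 62.1%, 51.4% and 58.9% of their gated CD4 cells. The exact 95% intervals (Clopper-Pearson) were 49.0 to 53.0%, 60.2 to 64.0%, 49.3 to 53.4% and 56.8 to 60.9%, and they cover counting error only. Both libraries with CD226-knockout Treg cells had lower member shares than the library of the same TIGIT status with CD226-sufficient Treg cells, namely 51.0% against 58.9% and 51.4% against 62.1%. With 1 library per genotype this has no replicate check and no test. The order did not carry over to conventional CD8 cells under the same gates, of which 51.2%, 58.0%, 39.1% and 38.9% had 10 or more Ifitm UMIs. Cells of Treg origin reached 27.1%, 16.6%, 26.2% and 28.9%, and cells with both CD45 forms 26.3%, 33.5%, 37.8% and 31.1%. These classes were set by the antibody ratio alone (below -1, and -1 to 1), with no gate on Cd4 or the other genes. Their depths per cell were also lower (medians of 3850 to 7432 UMIs, against 7078.5 to 9020.0 in gated CD4 cells).

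**Figure D1:**
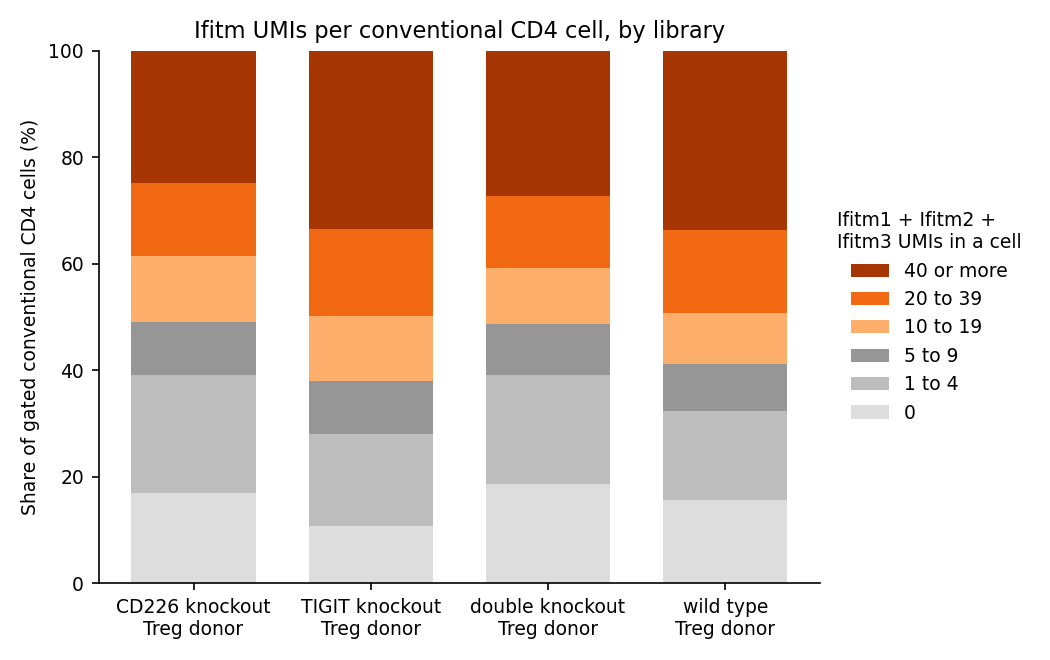
Shares of gated conventional CD4 cells (y axis, percent) in 6 classes of summed Ifitm1, Ifitm2 and Ifitm3 UMIs, 1 bar per library (x axis, by genotype of the Treg donor). The 3 orange classes are the members, and the share with 40 or more UMIs was 24.8%, 33.5%, 27.3% and 33.6%.

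Members varied widely in Ifitm content, and the distribution had no gap at the threshold. The median member held 38, 43, 42 and 46 Ifitm UMIs in the 4 libraries, and the cell with the most held 333. Per 10000 UMIs of a cell, the medians were 44.0, 55.3, 47.2 and 49.3. At 10 UMIs, just inside, there were 137 cells, and at 9 UMIs, just outside, 143.

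The 3 genes contributed unequally to the sum. Ifitm1 gave 45.15% of the members' Ifitm UMIs, Ifitm2 34.9% and Ifitm3 19.9%, in a 3' assay that counts 1 tag per captured transcript whatever its length. Ifitm1 stood at 2425, 2795, 2525 and 2288 CPM in members, Ifitm2 at 1752, 2025, 2009 and 1964 CPM, and Ifitm3 at 999.6, 1259, 1065 and 1092 CPM, against 0 by definition in Ifitm-0 cells. The genes are close paralogs, and reads shared between them cannot be assigned with certainty. Across cells, members with more Ifitm1 per UMI also had somewhat more Ifitm2 (Pearson's r of 0.33 to 0.36 within libraries of 1225 to 1601 cells), while r was 0.13 to 0.18 for Ifitm1 with Ifitm3. These r share each cell's depth and were taken among members only. Members were chosen by the sum of these same genes, which by itself changes r. The values are descriptions. The other Ifitm genes were scarce in members: Ifitm5 stood at 1.38 to 1.97 CPM, Ifitm6 at 2.205 to 5.99 CPM, Ifitm7 at 0 to 0.14 CPM and Ifitm10 at 1.92 to 2.59 CPM.

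Ifitm1 made up more of the sum in the cells richest in Ifitm. In cells with 10 to 19 Ifitm UMIs, Ifitm1 averaged 237 CPM over libraries, against 775 CPM for Ifitm2 and 464 CPM for Ifitm3. In cells with 40 or more, the averages were 4149, 2613 and 1470 CPM. The order of Ifitm1 and Ifitm2 was thus opposite in these classes of members.

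Id3 and Cd9, which were given with the Ifitm genes as marks of these cells, were not higher in members than in Ifitm-0 cells with all cells. Id3, an inhibitor of E proteins, stood at 34.3, 38.4, 41.5 and 39.4 CPM in members, against 64.7, 69.9, 46.3 and 65.7 CPM in Ifitm-0 cells. Cd9, a tetraspanin, stood at 90.4, 69.5, 77.1 and 76.4 CPM in members, against 104, 79.2, 104 and 86.7 CPM in Ifitm-0 cells. Id3 was lower in members in all 4 libraries and its groups did not overlap, while those of Cd9 did. In pairs of cells of equal depth, the log2 ratio of members over Ifitm-0 cells ranged from -0.31 to 0.55 for Id3 and from -0.22 to 0.21 for Cd9. Along the Ifitm classes, Id3 averaged 61.7 CPM at 0 UMIs and 21.7 CPM at 5 to 9 UMIs. Among members it rose with Ifitm, at 29.2, 31.7 and 44.6 CPM with 10 to 19, 20 to 39 and 40 or more UMIs. Both served as markers of the cells and were not tested.

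By their RNA the cells were T cells, and the gates set their CD4 kind. Cd3d averaged 889 ± 18.1 CPM and Cd3e 228 ± 12.9 CPM in members (SD, n = 4 libraries). The list of T cell markers described below summed to 7695 to 8055 CPM in members and 9616.5 to 10399 CPM in Ifitm-0 cells. The gates themselves set Cd4 above Cd8a plus Cd8b1 in each cell. Cd4 stood at 170.4 to 194.8 CPM in members and Cd8a at 1.21 to 1.76 CPM there. Il7r, limited by its gate, still stood at 51.9, 43.0, 41.3 and 32.6 CPM in members, against 26.0, 30.3, 24.3 and 19.8 CPM in Ifitm-0 cells, with no overlap. It was part of the rule and has no test.

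Marker lists of other cell types were low in both classes, except neutrophil and erythroid markers in some libraries. Myeloid markers summed to 49.2 to 61.1 CPM in members and 30.1 to 52.1 CPM in Ifitm-0 cells, with no gene of the list at 0. B and plasma cell markers summed to 4.4 to 5.3 CPM in members and 1.6 to 3.7 CPM in Ifitm-0 cells. NK markers summed to 3.8 to 5.0 CPM in members and 16.1 to 30.4 CPM in Ifitm-0 cells, most of it Eomes, which some T cells also express, with Klra8 at 0. Neutrophil markers reached 85.6 and 265 CPM in members of the CD226-knockout and double-knockout libraries, against 2.9 and 4.3 CPM in the other members and 3.4 to 5.5 CPM in Ifitm-0 cells. Erythroid markers summed to 16.4 to 34.2 CPM in members and 10.5 to 112.6 CPM in Ifitm-0 cells. Platelet, progenitor and stromal lists stayed at or below 1.1 CPM in members and 3.1 CPM in Ifitm-0 cells. The part of such cells in the results below was not tested.

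Which other genes went with Ifitm content was tested on UMIs summed per library and class, 8 sums in all, with edgeR's quasi-likelihood test, the library as a block and Benjamini-Hochberg adjustment over all genes tested. The class was set by Ifitm UMIs of the same cells, so the test describes which genes vary with Ifitm between cells. At an adjusted p of at most 0.05, 2400 of 9971 genes (24.1%) were called, 1153 (11.6%) higher and 1247 (12.5%) lower in members. Members also held more UMIs per cell, with medians of 9069, 7476, 8802 and 9788 in members and 5808, 4669, 6213 and 6474 in Ifitm-0 cells. Members were therefore also paired with Ifitm-0 cells of the same library and of equal depth (365, 218, 390 and 309 pairs). The paired members were shallower than all members, with medians of 6463, 5773.5, 6754.5 and 7044 UMIs. They held more Ifitm per UMI, with log2 ratios of 11.57 to 11.82 for Ifitm1, against 11.16 to 11.45 with all members. Pairing thus changed Ifitm content as well as depth. In pairs 1596 of 8668 genes (18.4%) were called, 768 (8.86%) higher and 828 (9.55%) lower. The same direction was called in both fits for 1149 genes (13.3%), 566 (6.53%) higher and 583 (6.73%) lower. These were 47.9% of the genes called with all cells, and 16 genes were called in opposite directions. The sums of 2098 genes (21%) did not overlap between the classes.

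The genes named first are those with the largest folds among genes that averaged at least 20 CPM over the 8 sums and were called with all cells and in pairs of equal depth. AA467197, which encodes a small mitochondrial protein, stood at 161, 135, 136 and 149.8 CPM in members, against 38.4, 26.6, 27.2 and 36.4 CPM in Ifitm-0 cells (log2 fold change 2.21, edgeR adjusted p 8.24e-23). Cd200r1, an inhibitory receptor for CD200, stood at 35.4, 44.1, 37.7 and 39.4 CPM in members, against 10.6, 8.66, 8.74 and 8.71 CPM in Ifitm-0 cells (log2 fold change 2.10, adjusted p 2.21e-15). For both genes every sum of members lay above every sum of Ifitm-0 cells.

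Cldnd1, a membrane protein with a claudin domain, had 229.6, 318, 236 and 257 CPM in members, against 61.7, 102, 73.5 and 60.2 CPM in Ifitm-0 cells (log2 fold change 1.86, adjusted p 4.45e-23). Ahr, a transcription factor activated by small ligands, had 48.2, 76.7, 57.2 and 68.4 CPM in members, against 17.8, 25.4, 20.7 and 20.6 CPM in Ifitm-0 cells (log2 fold change 1.60, adjusted p 9.48e-16). Itgb1, the integrin beta-1 chain that binds extracellular matrix, had 567, 604, 602 and 547 CPM in members, against 225, 210.3, 211 and 244 CPM in Ifitm-0 cells (log2 fold change 1.42, adjusted p 5.08e-18). None of these 3 genes overlapped between the classes. Fgl2, a secreted immunoregulatory protein, Adam8, a membrane metalloprotease, and Tmem37 had log2 fold changes of 1.80, 1.35 and 1.20.

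Some genes of killer cell lectin-like receptors were higher in members. Klrk1, which encodes the activating receptor NKG2D, had 61.7, 53.3, 55.4 and 55.1 CPM in members, against 10.6, 3.09, 15.9 and 20.2 CPM in Ifitm-0 cells (log2 fold change 2.13, adjusted p 0.00759). Klrc1 (NKG2A) had a log2 fold change of 1.34 and its partner Klrd1 (CD94) one of 1.30. Klrg1, an inhibitory receptor of the same family, had a log2 fold change of -0.22 that did not pass (adjusted p 0.341), and it was lower in pairs of equal depth (-0.83, adjusted p 0.00319). Members were nearly level across libraries in Klrk1, and the spread lay in the Ifitm-0 cells. Klrk1 lost its call without the CD226-knockout library (adjusted p 0.0567) and without the double-knockout library (adjusted p 0.0607). Klrd1 lost its call without the CD226-knockout, double-knockout or wild-type library (adjusted p of 0.137, 0.142 and 0.0506 in that order). Cd7, a T and NK cell surface molecule, had a log2 fold change of 1.77, and Lgals7, a galectin, one of 1.23 with classes that overlapped.

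**Figure D2:**
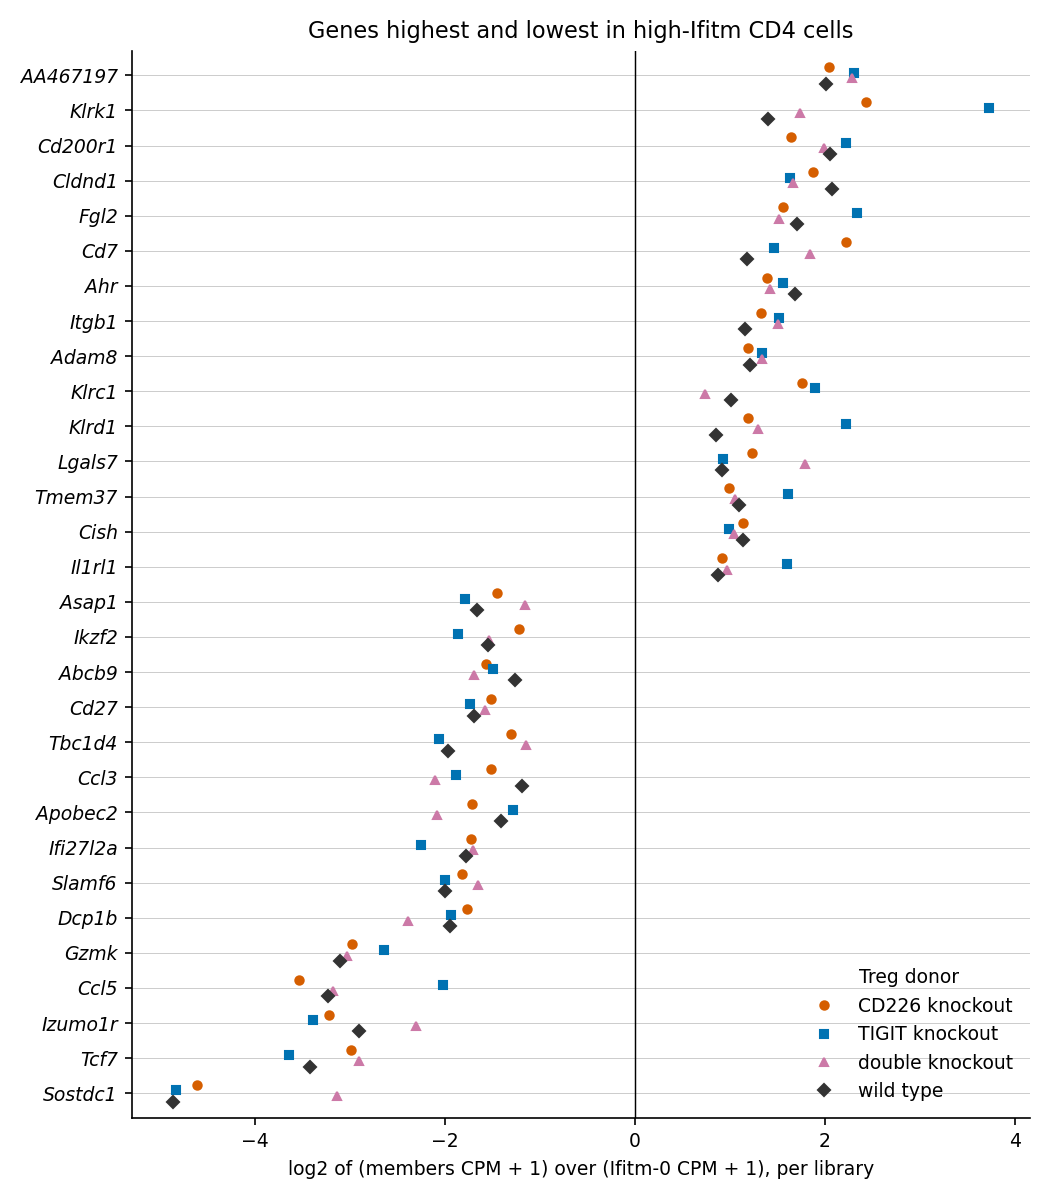
Log2 ratio of CPM plus 1 in members over CPM plus 1 in Ifitm-0 cells (x axis), with 1 point per library. The y axis holds the 15 genes highest and the 15 lowest in members among genes that passed the choice. They needed 20 CPM or more and calls with all cells and in pairs of equal depth. The same direction in all 4 libraries was also required, so all points of a gene lie on the same side of 0 by choice. Sostdc1 lies farthest out.

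Among the genes lowest in members, Tcf7, the transcription factor TCF-1 of naive, memory and follicular helper cells, had 8.79, 6.21, 7.37 and 6.95 CPM in members, against 77.1, 89.0, 61.8 and 84.3 CPM in Ifitm-0 cells (log2 fold change -3.36, adjusted p 8.24e-23). Sostdc1, a secreted antagonist of BMP and Wnt signals, had 0.148, 3.32, 0.809 and 1.60 CPM in members, against 27.1, 122, 14.9 and 74.8 CPM in Ifitm-0 cells (log2 fold change -5.31, adjusted p 1.46e-19). Izumo1r, the folate receptor-like protein FR4, had 6.13, 9.87, 8.74 and 9.49 CPM in members, against 65.8, 113, 47.2 and 77.6 CPM in Ifitm-0 cells (log2 fold change -3.08). Members were low for all 3 in every library, while Ifitm-0 cells varied, most for Sostdc1.

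Gzmk, a granzyme, had 15.7, 12.8, 14.1 and 15.5 CPM in members, against 131, 85.3, 122 and 141 CPM in Ifitm-0 cells (log2 fold change -3.01, adjusted p 1.26e-25). Ccl5, a chemokine for T cells and monocytes, had 75.1, 62.0, 94.8 and 92.9 CPM in members, against 884, 255, 868 and 879 CPM in Ifitm-0 cells (log2 fold change -3.07, adjusted p 0.00796). The TIGIT-knockout library stood apart in Ccl5 of Ifitm-0 cells, and the call was lost without the double-knockout (adjusted p 0.0589) or the wild-type library (0.0694). Slamf6, a receptor of the SLAM family on progenitor-like and follicular helper T cells, had 79.0, 60.9, 72.4 and 58.1 CPM in members, against 282, 246, 229 and 236 CPM in Ifitm-0 cells (log2 fold change -1.83). Cd27, a costimulatory TNF receptor, and Ikzf2, the transcription factor Helios, had log2 fold changes of -1.60 and -1.51. Dcp1b, Apobec2, Ccl3, Tbc1d4, Abcb9 and Asap1 lay between -2.07 and -1.50. Ccl3 lost its call without the CD226-knockout library (adjusted p 0.0695) or the TIGIT-knockout library (0.0735).

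Antiviral interferon-stimulated genes, which are commonly listed together with Ifitm genes, did not follow Ifitm. Of 46 genes on the list, 45 were in the files and 41 were tested: 36 were lower in members and 1 (Oas3) was higher. Over all genes tested with all cells, 12.5% were lower and 11.6% higher, and in pairs of equal depth 9.55% and 8.86%. The list counts here and below are to be read beside these shares. The list median was -0.57 on the log2 scale, against -0.0016 over all genes tested. In pairs of equal depth 25 of 37 tested genes were lower and 2 higher, with a median of -0.43 against 0.0047 over all genes. Over the 25 alternatives computed, the median ranged from -1.01 to -0.31.

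Isg15, a ubiquitin-like modifier, had 68.8, 69.2, 56.6 and 64.9 CPM in members, against 162, 177, 121 and 131 CPM in Ifitm-0 cells (log2 fold change -1.14, adjusted p 4.25e-17). Ifi27l2a, a mitochondrial protein induced by interferon, had 500.1, 457, 484 and 431 CPM in members, against 1655, 2184, 1586 and 1479 CPM in Ifitm-0 cells (log2 fold change -1.83, adjusted p 0.00285). Ifit1, which binds viral RNA, had 6.21, 6.07, 7.37 and 3.01 CPM in members, against 27.7, 16.7, 23.9 and 20.6 CPM in Ifitm-0 cells (log2 fold change -1.97). The classes did not overlap for any of them, and the promoter of Isg15 holds the response element printed above. Irf7, the IRF that amplifies the type I response, averaged 23.5 ± 3.49 CPM in members and 48.9 ± 3.42 CPM in Ifitm-0 cells (SD, n = 4 libraries). Ifit3b was lowest in the list, with a log2 fold change of -2.95, from low levels in both classes. Oas3, an RNA-sensing synthetase, was the exception at 40.3 ± 3.78 CPM in members and 31.4 ± 7.23 CPM in Ifitm-0 cells (log2 fold change 0.43, adjusted p 0.000354), and its classes overlapped. Ly6e, another interferon-inducible surface protein, had 1039 ± 29.5 CPM in members and 1018 ± 70.4 CPM in Ifitm-0 cells and did not pass the test with all cells (adjusted p 0.115).

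Interferon-inducible GTPases and genes of MHC class I presentation moved less. Of 15 GTPases tested, 5 were lower and 0 higher in members, with a list median of -0.21, and in pairs of equal depth 3 of 13 were lower with a median of -0.049. Of 20 genes of MHC class I and antigen processing, 7 were lower and 2 higher, with a median of -0.06. In pairs of equal depth 3 of these 20 were lower and 4 higher, with a median of 0.011.

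Receptors and transducers of the interferon and related cytokine pathways were mostly lower in members: 14 of 21 tested were lower and 2 higher, with a median of -0.38. Ifnar2, a chain of the type I interferon receptor, had 7.39, 6.14, 6.31 and 8.55 CPM in members, against 24.3, 20.4, 19.1 and 18.6 CPM in Ifitm-0 cells (log2 fold change -1.49, adjusted p 2.81e-10). Il6ra, the IL-6 receptor, had 0.887, 0.846, 1.46 and 0.869 CPM in members, against 11.6, 13.6, 10.4 and 6.73 CPM in Ifitm-0 cells (log2 fold change -3.30). The classes did not overlap for either receptor. The higher genes were Socs1, a feedback inhibitor of JAK kinases (log2 fold change 0.37), and Ifngr1, a chain of the interferon-gamma receptor (0.22).

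Genes of the IL-2 and STAT5 pathway were higher in members. Of 15 genes, all tested, 10 were higher and 2 lower, with a list median of 0.43, and in pairs of equal depth 9 were higher and 2 lower with a median of 0.74. Il2ra, the alpha chain of the IL-2 receptor, had 68.3, 89.9, 87.0 and 80.8 CPM in members, against 34.3, 43.9, 42.7 and 39.2 CPM in Ifitm-0 cells (log2 fold change 1.06, adjusted p 5.15e-14). Cish, a feedback inhibitor induced by STAT5, whose GAS matches are printed above, had 63.8, 93.0, 76.8 and 92.0 CPM in members, against 28.4, 46.4, 36.9 and 41.2 CPM in Ifitm-0 cells (log2 fold change 1.14, adjusted p 1.71e-14). Both were higher in members in every library, with no overlap. Socs2, another STAT5-induced inhibitor, had the highest called fold of the list (log2 fold change 1.41, adjusted p 4.83e-07), and Pim2, a survival kinase, Gadd45g, a growth arrest gene, and Myc had 1.07, 0.98 and 0.71. The receptor chains Il2rb and Il2rg stood at 0.35 and 0.40. Socs3, an inhibitor better known for IL-6 signalling, was lower (log2 fold change -0.92), as was the kinase Pim1 (-0.18). Stat5a and Stat5b themselves, which belong to the list of receptors and STATs, were lower in members (-0.42 and -0.51). Il2, limited by its gate, stood at 2.41 to 3.97 CPM in members and 2.38 to 4.45 CPM in Ifitm-0 cells. Over the 25 alternatives, the list median ranged from 0.39 to 1.0004.

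**Figure D3:**
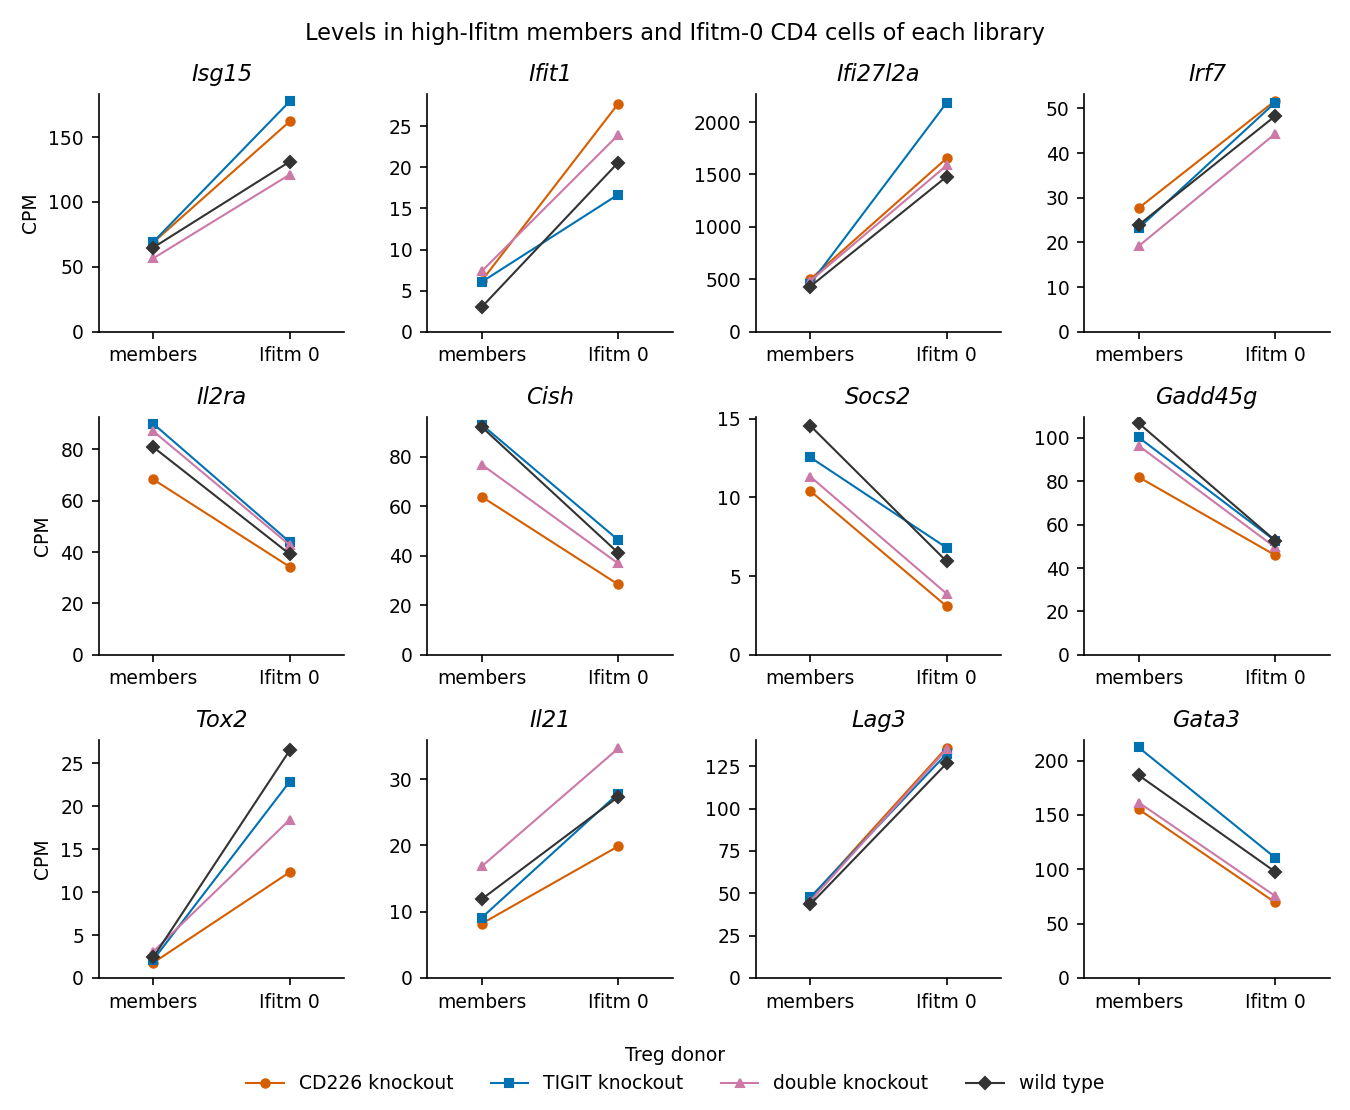
CPM (y axis, linear from 0) of 12 genes in members and in Ifitm-0 cells (x axis), with 1 line per library. Isg15, Ifit1, Ifi27l2a, Irf7, Tox2, Il21 and Lag3 lie lower in members and Il2ra, Cish, Socs2, Gadd45g and Gata3 higher, in all 4 libraries; the genes were picked from the lists after their values had been seen.

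Genes of T follicular helper (Tfh) cells, the helpers of B cells, were lower in members. Of 16 genes 12 were tested, 11 of them lower and 1 higher, with a median of -1.28 (-1.37 in pairs of equal depth, where 9 of 11 were lower). The gate on Cxcr5 had already removed cells with that Tfh receptor from both classes. Tox2, a DNA-binding protein of Tfh cells, had 1.77, 2.12, 3.08 and 2.41 CPM in members, against 12.3, 22.9, 18.4 and 26.5 CPM in Ifitm-0 cells (log2 fold change -3.03, adjusted p 3.67e-15). Il21, the cytokine of Tfh cells, had 8.20, 9.10, 16.8 and 11.9 CPM in members, against 19.9, 27.8, 34.6 and 27.3 CPM in Ifitm-0 cells (log2 fold change -1.20, adjusted p 1.16e-09). For both, members lay below Ifitm-0 cells with no overlap. Bcl6, the repressor that directs the Tfh fate, was low in both classes, at 1.34 ± 0.177 CPM in members and 5.36 ± 2.57 CPM in Ifitm-0 cells (log2 fold change -1.89, adjusted p 1.56e-05), and was not among the genes tested in pairs. Sh2d1a, the SLAM adaptor SAP, and Icos had log2 fold changes of -1.37 and -0.71. The higher gene was Cd40lg, the ligand for CD40 on B cells (0.37, adjusted p 0.0232), whose classes overlapped.

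Naive and memory genes were lower as well, 9 of 16 tested (2 higher), with a median of -0.86, and of -0.33 in pairs of equal depth, where 7 of 14 were lower and 3 higher. Ccr7, the lymph node homing receptor, had a log2 fold change of -2.87. Igfbp4 was the lowest of the list, at -3.75. Bcl2, a survival gene, and Satb1, a chromatin organiser, were higher (0.31 each). Lef1, a partner of TCF-1, had -0.77. The list's median ranged from -1.19 to -0.03 over the alternatives.

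Among type 2 genes, 12 of 18 were tested, 6 of them higher and 4 lower in members, with a median of 0.83, and in pairs of equal depth 4 of 10 were higher and 1 lower, with a median of 0.70. Gata3, the regulator of type 2 helper cells, had 155, 212, 161 and 187 CPM in members, against 69.5, 111, 75.4 and 97.8 CPM in Ifitm-0 cells (log2 fold change 1.07, adjusted p 3.69e-17). Il1rl1, which encodes the IL-33 receptor ST2, had 37.2, 39.6, 42.0 and 32.1 CPM in members, against 19.2, 12.4, 21.0 and 17.03 CPM in Ifitm-0 cells (log2 fold change 1.11, adjusted p 4.66e-10). Il13, a type 2 cytokine, had 6.35, 12.1, 17.2 and 14.2 CPM in members, against 0.685, 1.86, 0.971 and 4.75 CPM in Ifitm-0 cells (log2 fold change 2.69, adjusted p 9.08e-10). The classes did not overlap for these 3 genes. Pparg, Rbpj and Cysltr1 were higher as well, at 2.26, 0.74 and 0.93. Pparg was low in both classes, at 3.01 ± 1.39 CPM in members and 0.531 ± 0.359 CPM in Ifitm-0 cells. Il4 had 10.1 ± 9.40 CPM in members and 5.63 ± 4.22 CPM in Ifitm-0 cells and did not pass (adjusted p 0.466). The lower genes were Il10, an anti-inflammatory cytokine (-1.84), its regulator Maf (-0.47), Il4ra (-0.94) and Ccr4 (-0.86). In pairs of equal depth Il10, Il4ra and Cysltr1 did not pass (adjusted p of 0.114, 0.177 and 0.0979 in that order). Pparg and Ccr4 were not among the genes tested in pairs. Against cells with 1 to 4 Ifitm UMIs in place of 0, the list median was 0.049.

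Th1 genes were divided, with 6 higher and 7 lower of 17 tested. Tbx21, the Th1 regulator T-bet, had a log2 fold change of 0.30 and did not pass in pairs of equal depth (0.15, adjusted p 0.316), while Cxcr6, a homing receptor of tissue effector cells, and Il18r1, an IL-18 receptor chain, had 0.64 and 0.56. Ifng averaged 213 ± 44.3 CPM in members and 299 ± 96.4 CPM in Ifitm-0 cells (log2 fold change -0.42, adjusted p 0.000167), and it did not pass in pairs of equal depth (adjusted p 0.295). Cxcr3, a receptor for interferon-induced chemokines, and the chemokine Ccl4 were lower, at -0.76 and -1.32. Cxcr6 rested on a narrow margin with all cells (adjusted p 0.0418), and in pairs of equal depth it had 0.75 (adjusted p 1.14e-37).

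Cytotoxicity genes were divided too, with 6 higher and 7 lower of 17 tested. Gzmc and Gzmm were higher at 2.14 and 1.82, and Ctsw, a protease of cytotoxic granules, at 0.89. Gzmb, a granzyme, averaged 1290.2 ± 191 CPM in members and 1411 ± 137 CPM in Ifitm-0 cells (log2 fold change -0.10, adjusted p 0.0384). Prf1, the pore protein perforin, and Eomes, a regulator of cytotoxic and NK cells, were lower, at -0.9997 and -2.91. Eomes had 3.47, 3.39, 2.99 and 2.94 CPM in members, against 28.4, 15.5, 29.4 and 24.2 CPM in Ifitm-0 cells, with no overlap.

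Inhibitory receptors were lower in 8 of 14 tested and higher in 3, with a median of -0.36 (-0.21 in pairs). Lag3, a receptor for MHC class II, had 47.1, 47.5, 45.3 and 43.4 CPM in members, against 136, 132, 135 and 127 CPM in Ifitm-0 cells (log2 fold change -1.50, adjusted p 1.32e-20). Ctla4, which binds the B7 ligands, and Pdcd1, which encodes PD-1, were lower at -1.22 and -0.45. Levels of Lag3 were nearly the same in the 4 libraries within each class. The 3 higher receptors were Cd200r1, Cd160 and Cd96. Of genes known from Treg cells, 5 of 15 tested were higher and 7 lower, and in pairs of equal depth 4 of 13 were higher and 8 lower. Izumo1r was the lowest of that list, and Ikzf2, Ctla4 and the costimulatory receptor gene Tnfrsf4 were lower at -1.51, -1.22 and -0.70. Nrp1, a semaphorin receptor, was higher at 0.91. Ikzf4, the transcription factor Eos, was higher at 2.71, with 2.71 ± 0.747 CPM in members and 0.402 ± 0.301 CPM in Ifitm-0 cells, and was not among the genes tested in pairs.

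Genes switched on soon after antigen receptor signalling were lower, 12 of 22 tested, with Myc the 1 gene higher and a median of -0.39 (-0.26 in pairs). Egr1, an immediate early transcription factor, averaged 7.63 ± 2.12 CPM in members and 24.2 ± 4.89 CPM in Ifitm-0 cells (log2 fold change -1.61, adjusted p 1.24e-11). Of 14 T cell markers, which hold receptor chains, signalling proteins and surface molecules such as Cd2, Cd5 and Cd28, 12 were lower, with a median of -0.32. Trac, the alpha chain constant region, had 543, 428, 538 and 544 CPM in members, against 813, 678, 884 and 796 CPM in Ifitm-0 cells (log2 fold change -0.59, adjusted p 2.01e-15). Thy1 was the 1 gene of that list that was higher, at 0.13. Tcrg-C1, a constant region of the gamma chain, had 10.3, 7.90, 7.85 and 5.48 CPM in members, against 0.343, 0.618, 0.971 and 0.396 CPM in Ifitm-0 cells (log2 fold change 3.76, adjusted p 2.51e-10), and Tcrg-C2 was higher too (3.18). Trdc, the delta chain constant region, had 2.37 ± 1.58 CPM in members and 2.63 ± 2.29 CPM in Ifitm-0 cells and did not pass (adjusted p 0.919). The gamma-delta and NKT list, in which Trdv4 was at 0, summed to 11.4 to 19.4 CPM in members and 1.2 to 6.5 CPM in Ifitm-0 cells, and the part of such cells was not tested.

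Homing and adhesion genes went both ways, with 7 higher and 7 lower of 21 tested. Itga1, an integrin for collagen, had 26.2, 22.6, 19.3 and 24.0 CPM in members, against 4.11, 1.24, 6.47 and 3.17 CPM in Ifitm-0 cells (log2 fold change 2.51, adjusted p 2.80e-11). Gpr15, a gut homing receptor, had 4.65, 7.76, 5.50 and 7.02 CPM in members and was at 0 in Ifitm-0 cells of 3 libraries and at 0.618 CPM in those of the TIGIT-knockout library (adjusted p 7.49e-10). Both were higher in every library, Gpr15 from very few UMIs. Itga4, an integrin chain for VCAM-1, was lower, at -0.79. In the list of S100, galectin and annexin genes 7 of 17 were higher and 2 lower, with Tagln2 at 0.58, Vim at 0.45 and Lgals1 at 0.39.

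Proliferation genes differed between the fits. With all cells, 19 of 27 were higher in members and 1 lower, with a median of 0.25, but in pairs of equal depth 1 was higher and 9 were lower, with a median of -0.095. With cells thinned to 4000 UMIs the median was 0.071, and the cause of the change was not tested. Mki67, a marker of cycling cells, averaged 522 ± 24.9 CPM in members and 398 ± 19.1 CPM in Ifitm-0 cells (log2 fold change 0.43), and 0.14 in pairs. Glycolysis and mTORC1 genes behaved alike, with 9 of 23 higher and a median of 0.11 in all cells, and 5 higher, 8 lower and a median of -0.11 in pairs.

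Of 13 tetraspanins 4 were lower and 0 higher, and of 4 tested E and Id protein genes 1 was higher and 0 lower. TNF receptor costimulators and ligands were higher in 3 and lower in 6 of 17, and BCL2 family and death genes higher in 3 and lower in 7 of 18. Wnt, Notch and TGF-beta genes were higher in 5 and lower in 3 of 17. Type 17 genes were higher in 1 and lower in 3 of 7, and stress and dissociation genes higher in 4 and lower in 4 of 15. The medians of these 7 lists lay between -0.16 and 0.06. Over all genes tested, 11.6% were higher and 12.5% lower, and no list was tested against these shares.

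**Figure D4:**
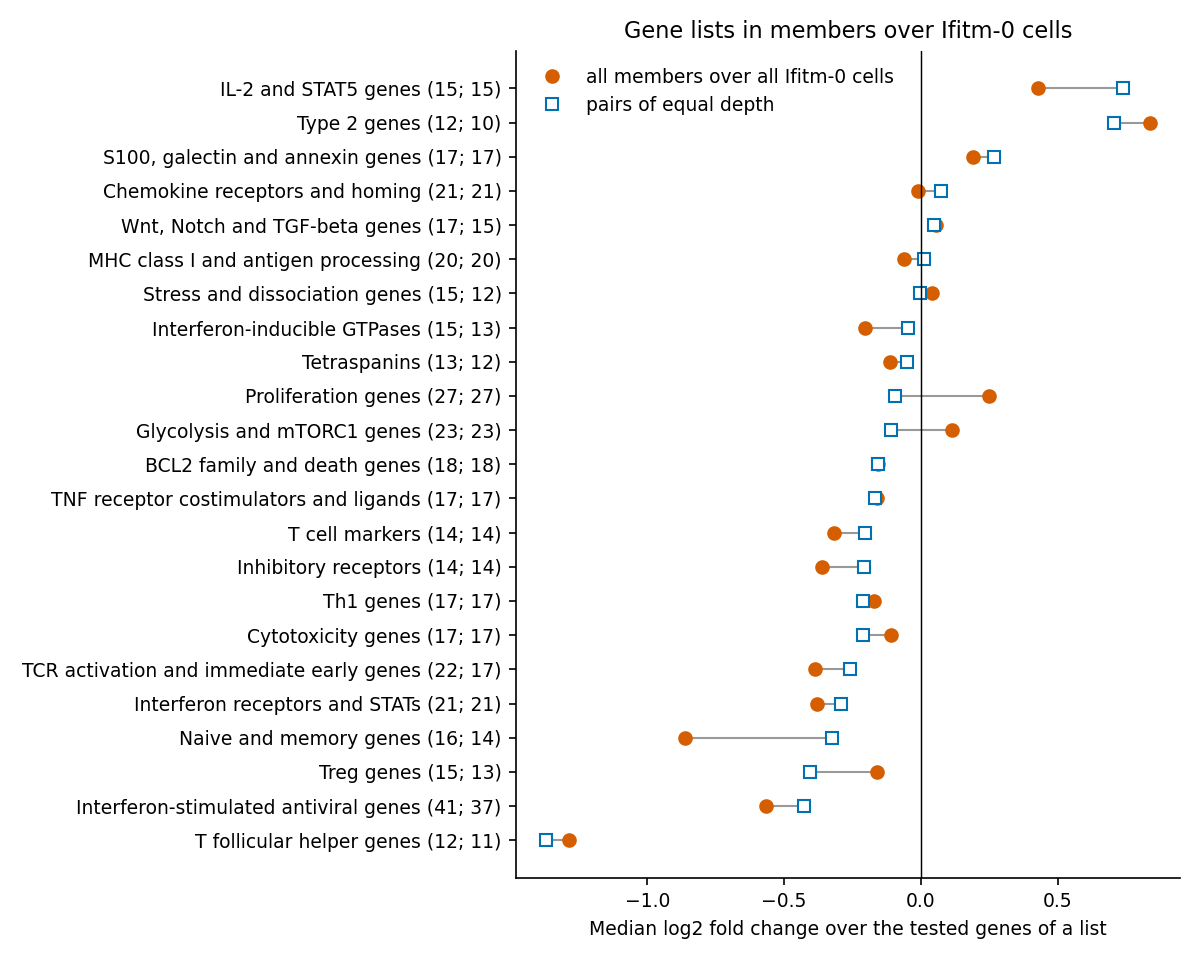
Median log2 fold change of members over Ifitm-0 cells (x axis) for each list with at least 10 tested genes (y axis, with the number tested in all cells and in pairs). Filled circles are all cells and open squares pairs of equal depth; the Tfh list lies lowest in both, and the proliferation and glycolysis lists are above 0 in all cells and below 0 in pairs.

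Levels of several genes changed below and above the threshold, and others levelled off. AA467197 averaged 32.1, 50.9, 64.3, 89.2, 119.6 and 177 CPM in cells with 0, 1 to 4, 5 to 9, 10 to 19, 20 to 39 and 40 or more Ifitm UMIs, and Cldnd1 74.3, 103, 140.1, 179, 223 and 306 CPM. Tcf7 averaged 78.1, 28.7, 11.6, 8.54, 7.21 and 7.08 CPM in the same classes, so that most of its drop lay below 10 UMIs. Isg15 averaged 147.9, 94.2, 80.5, 79.6, 68.4 and 57.7 CPM, and Ifi27l2a 1726, 1046, 795, 649, 560.0 and 364 CPM. Both interferon-stimulated genes were thus lowest in the cells with the most Ifitm. Gata3 stayed level among members, at 173, 182 and 179.5 CPM in the 3 member classes, against 88.4 CPM at 0. Median depth was 5950 UMIs per cell at 0 and 7772, 8510, 8225, 8466 and 8979 in the higher classes. Just inside the threshold, cells at 10 UMIs had 75.4 ± 19.6 CPM of AA467197 and 84.9 ± 40.7 CPM of Isg15, and cells at 9 UMIs had 55.1 ± 5.02 and 53.8 ± 10.6 CPM (SD, n = 4 libraries).

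**Figure D5:**
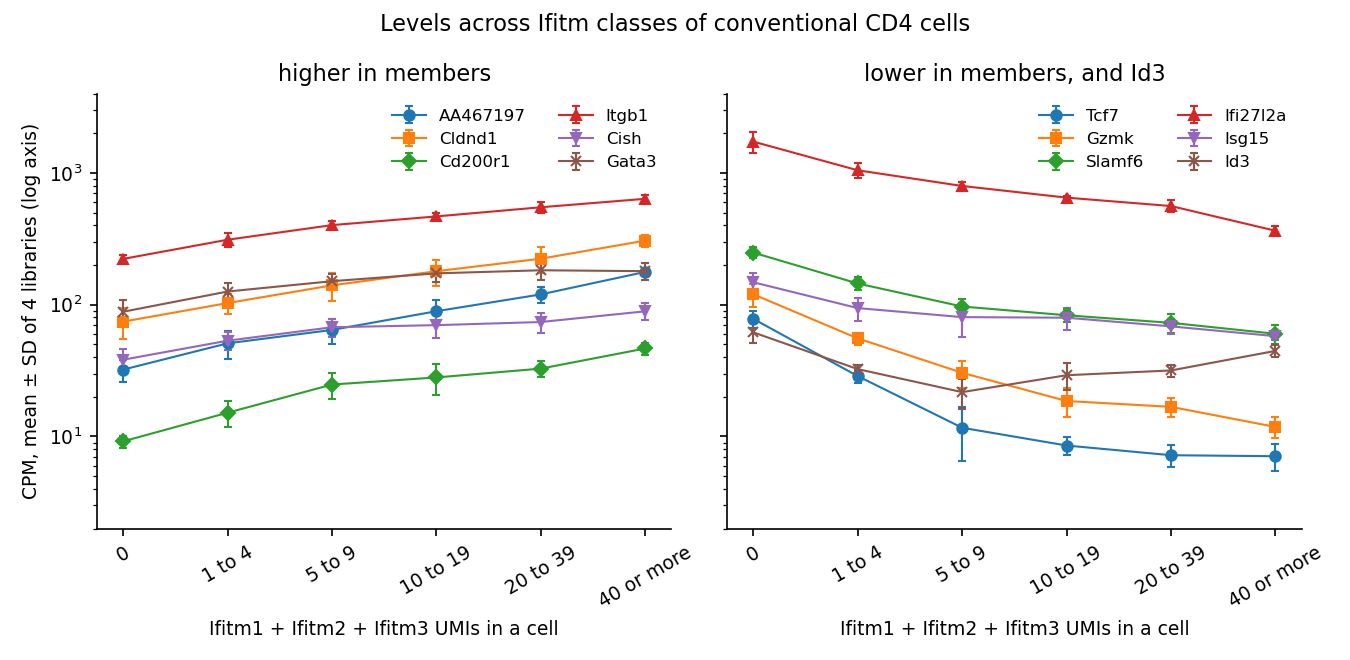
CPM (y axis, log scale, mean and SD of 4 libraries) of 12 genes over 6 classes of Ifitm UMIs per cell (x axis). Genes higher in members climb over the classes and Gata3 levels off at 10 UMIs, while Tcf7 and Gzmk drop most between 0 and 9 UMIs and Id3 is lowest at 5 to 9.

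The same rule was applied to conventional CD8 cells, the other wild-type T cells of these mice. There 1280 of 10118 genes (12.7%) were called, 660 (6.52%) higher and 620 (6.13%) lower with high Ifitm. Of the 30 named genes, 29 could be fitted in CD8 cells, 27 of them with the same sign as in CD4 cells and 21 called in the same direction. In a model of both cell kinds, the fold differed between CD4 and CD8 cells for 767 of 10532 genes (7.28%), among them 18 of the 30 named genes.

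Some genes had close folds in the 2 kinds of cell. Cd200r1 had a log2 fold change of 2.10 in CD4 cells and 2.22 in CD8 cells (adjusted p of the difference 0.859), Ahr 1.60 and 1.58 (0.985), Itgb1 1.42 and 1.32 (0.533), Il2ra 1.06 and 1.09 (0.923), and Gata3 1.07 and 0.96 (0.547). A p that misses the threshold does not show equal folds. Others differed: Klrk1 had 2.13 in CD4 cells and -0.07 in CD8 cells (adjusted p of the difference 0.000868), Cd7 1.77 and -0.02 (5.00e-06), and Ctsw 0.89 and 0.05 (1.40e-15). For Tfh genes, 11 of 12 differences were called, all toward a lower fold in CD4 cells. Icos had -0.71 in CD4 cells and 0.21 in CD8 cells, and Il21 -1.20 and 0.76. Of antiviral genes, 22 of 40 were lower with high Ifitm in CD8 cells and 3 higher, with a median of -0.29, and 12 of 43 differed, all toward a lower fold in CD4 cells. Ifng was lower with high Ifitm in CD4 cells (-0.42) and higher in CD8 cells (1.04, adjusted p of the difference 0.00128). The IL-2 and STAT5 list had a median of 0.33 in CD8 cells, with 9 of 15 higher and 0 lower.

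Within members, few genes differed with the genotype of the Treg cells by a fold rule. Among 5028 genes with at least 20 CPM on average, 2 (0.0398%) were at least 1.5-fold higher in members from both libraries with CD226-knockout Treg cells than in members from the library of the same TIGIT status with CD226-sufficient Treg cells, and 0 were lower. Both were neutrophil genes. S100a8 had 28.1, 0.987, 76.8 and 1.20 CPM in the 4 libraries and S100a9 39.9, 1.20, 125 and 2.41 CPM, and in the library where they were most concentrated 5 cells held 98.3% of the S100a8 UMIs and 98.1% of the S100a9 UMIs. For TIGIT loss, 0 genes passed in either direction. With 1 library per genotype these are descriptions with no test. Il7r was ordered 51.9, 43.0, 41.3 and 32.6 CPM, lowest beside wild-type Treg cells, and Ahr 48.2, 76.7, 57.2 and 68.4 CPM, lower in both libraries with CD226-knockout Treg cells than in the library of the same TIGIT status. Isg15 ranged over 56.6 to 69.2 CPM and Ifitm1 over 2288 to 2795 CPM.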

How the data were processed

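Spleen T cells of 4 libraries were profiled with a 3' single-cell RNA assay and CD45.1 and CD45.2 antibody tags. The deposited values are raw UMI counts per gene and cell, made with Cell Ranger 3.1.0 on mm10, per the submitters' processing notes. The members, the gene lists and the tests were chosen with earlier results of these data known. Classes were set by the Ifitm UMIs of the same cells whose other genes were tested. No doublet caller was run. UMIs were summed per library and class, and 8 sums were fitted with edgeR 4.0.16 (R 4.3.3; filterByExpr, TMM scaling, quasi-likelihood test) with the library as a block, since both classes come from the same library. P-values were adjusted by Benjamini and Hochberg over all genes tested, with calls at 0.05. The 20 genes used by the gates, as marks or as Ifitm relatives have no test. CPM are UMIs scaled to 1000000 per sum, and n = 4 libraries. The libraries are single pools of different genotypes. With the library as a block, the p-values weigh the fold of members over Ifitm-0 cells against an estimate of its variation between these libraries. That estimate borrows from all genes fitted together. A very small p thus does not measure how steady a given gene was across the 4 libraries.

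The 15 genes named in each direction had the largest folds among genes at 20 CPM or more that were called both with all cells and in pairs of equal depth, with 1 direction in every library; Xist, Y-linked, haemoglobin and receptor variable genes were left out. Other list members were named after their values had been seen. Pairs matched cells of 1 library within 0.1 log2 units of UMIs. Alternatives were DESeq2 1.42.0, other filters and scalings, cells thinned to 4000 UMIs, other Ifitm limits and each library left out. The fit was tested on simulated data. Sequences are from RefSeq (GRCm38.p6). Results for some list members are not reported here.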

Additional observations from a re-analysis of the deposited data

Results flagged for a closer look

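In 18 named genes the log2 fold of high over zero Ifitm differed between conventional CD4 and CD8 cells by the test of the difference in 1 edgeR model. The CD4 fold was higher for the NK receptor genes Klrk1 (difference 2.195 log2 units), Klrc1 (1.19) and Klrd1 (1.08). It was also higher for Cd7 (1.78), Fgl2 (0.96) and Cldnd1 (0.81). It was lower for Izumo1r (-2.26), Lgals7 (-1.92), Gzmk (-1.66), Dcp1b (-1.65), Ccl3 (-1.50) and Tcf7 (-1.31). Smaller differences toward a lower CD4 fold were found for Ikzf2 (-1.25), Apobec2 (-1.11), Slamf6 (-0.94), Cd27 (-0.93), Asap1 (-0.87) and Abcb9 (-0.86).

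In 4 named genes 1 library stood apart from the other 3 by Dixon's 95% criterion on the log2 difference of members minus Ifitm-0 cells, which chance meets in about 1 in 20 groups. The TIGIT-knockout library had the highest difference of Tmem37 (1.61) and of Il1rl1 (1.60) and the lowest of Ifi27l2a (-2.25). The double-knockout library had the difference of Sostdc1 nearest to 0 (-3.13).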

How the results depend on the processing

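Of 750 results of the 30 named genes over 25 alternatives, 726 kept direction and call, 24 lost the call and 0 changed direction. These genes had been picked for calls with all cells and in pairs of equal depth, and for the same direction in every library. The choice thus fixed the result in pairs and favoured the others. Of all genes called with all cells, 47.9% were called in the same direction in pairs. The calls of 24 genes held throughout, and those of Klrd1, Ccl3, Ccl5, Lgals7, Klrk1 and Il1rl1 were lost in 8, 6, 4, 3, 2 and 1 alternatives in that order. The count of called genes, 2400 (1153 higher, 1247 lower), was 1335 (632 and 703) with DESeq2, 1596 (768 and 828) in pairs of equal depth, 1425 (679 and 746) with thinned cells and 1576 (781 and 795) against cells with 1 to 4 Ifitm UMIs. It ranged from 1776 to 2201 (826 to 1051 higher, 950 to 1150 lower) with 1 library left out. In pairs with the CD226-knockout, TIGIT-knockout, double-knockout or wild-type library left out it was 1239 (601 and 638), 1446 (703 and 743), 1244 (605 and 639) and 1215 (599 and 616). Scaling by library totals alone shifted the median of all genes to -0.041 and called 843 genes higher and 1500 lower, so that 36.0% of calls were higher, against 48.0%. With no count filter 56.2% were higher.

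Both classes came from each library. Without the replicate block 1909 genes were called (866 higher, 1043 lower) and Lgals7 lost its call (adjusted p 0.106), while the calls of the other named genes did not change.

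The proliferation list's median changed sign to -0.095 in pairs of equal depth (-0.087, -0.12, -0.042 and -0.14 with these libraries left out in that order), and that of the myeloid list to -0.42 against cells with 1 to 4 Ifitm UMIs; the cause was not tested.

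With 5 or more Ifitm UMIs, the share of gated cells was 60.9%, 71.96%, 60.8% and 67.6% in the order of the report. With 20 or more it was 38.6%, 49.7%, 40.9% and 49.2%. The stricter cell filter gave 53.3% in the CD226-knockout, 66.2% in the TIGIT-knockout and 62.0% in the wild-type library. The TIGIT-knockout share was 65.4% by Ifitm rate and 59.9% without the other gates. With thinned cells it was 66.2%, but that share used 5 or more Ifitm UMIs after thinning, in place of 10. It also left out 344 shallower cells of this library. The fit of thinned cells had 1484 members in this library, against 1479 by that share, so the classes were not the same. Depth limits genes near 1 CPM, where a sum of Ifitm-0 cells holds few UMIs.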
